A study of Brassica napus with 9 samples.

Results

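The fatty acid synthase of plastids lengthens an acyl chain in a repeated cycle, and 3 of its enzymes are the subject here. After a ketoacyl-ACP synthase (KAS) has condensed the chain with a malonyl unit, β-ketoacyl-ACP reductase (KAR) reduces the keto group, hydroxyacyl-ACP dehydratase (HAD) removes water and enoyl-ACP reductase (ER) reduces the remaining double bond. The chain stays on acyl carrier protein (ACP) until a thioesterase releases it, and in rapeseed the products feed the oil of the filling embryo. Of 91830 genes in the deposited table, 6 were chosen as the KAR, HAD and ER genes that the study placed in its plastid pathway, namely 4 KAR genes, 1 HAD gene and 1 ER gene. Their annotation rests on similarity to Arabidopsis proteins. The rule takes them by name from the study's pathway figure. That figure represented each step by its most highly expressed genes and showed genes with other expression patterns separately. The 6 were thus picked in part by their values in these same libraries, and counts among them are not those of an unselected set.

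Whole *Brassica napus* pods, seeds and pod wall together, were sampled at 8, 25 and 45 DAF, which the sample descriptions read as days after fertilization and the methods as days after flowering. The *CpFatB4* and *CpFatB5* lines were homozygous T4 plants of the cultivar Youngsan that expressed an acyl-ACP thioesterase of *Cuphea paucipetala* under a seed-specific Napin promoter, and the control was Youngsan without a transgene. All plants were grown in a greenhouse. Each library was made from equal amounts of 3 RNA preparations, so every line and stage had 1 library, and no difference between 2 libraries had a replicate check.

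The 9 libraries held from 38677752 to 88259440 counts over their 2 count columns, the lowest in *CpFatB5* at 45 DAF. The 20 most abundant genes took from 3.78% to 10.9% of the counts in 7 libraries, 18.1% in *CpFatB5* at 45 DAF and 38.7% in *CpFatB4* at 45 DAF, so the transgenic libraries of 45 DAF stood apart. Seed storage genes checked the tissue. At 8 DAF the 9 napin genes together took from 0.00113% to 0.00202% of the counts, and at 25 DAF from 1.84% to 2.69%. Pod wall markers were not checked. Values are normalized counts, that is counts divided by the size factor of the library and averaged over its 2 columns, and intervals at the 95% level cover counting error only.

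BnaA09g28100D is 1 of 6 KAR genes in the table that match AT1G24360, the plastid KAR of Arabidopsis. In *CpFatB4* pods it had 850, 3072 and 1205 normalized counts at 8, 25 and 45 DAF. In *CpFatB5* pods it had 839, 3038 and 240, and in Youngsan pods 977, 3163 and 517. The 3 libraries of 25 DAF were the highest of the 9 and their counting intervals overlapped in order, while the lines lay apart at 45 DAF.

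The HAD gene BnaA03g02830D, whose product dehydrates the hydroxyacyl intermediate, followed a similar course. It had 540, 1768 and 768 normalized counts at 8, 25 and 45 DAF in *CpFatB4* pods, 544, 1524 and 222 in *CpFatB5* pods, and 507, 1683 and 263 in Youngsan pods. The counting intervals of the 3 lines overlapped at 8 DAF. At 45 DAF those of *CpFatB5* and Youngsan overlapped and *CpFatB4* was above both.

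The ER gene BnaA03g38220D matches AT2G05990, the single ER of Arabidopsis, which completes the cycle. Its normalized counts at 8, 25 and 45 DAF were 745, 5019 and 1411 in *CpFatB4* pods, 929, 4448 and 182 in *CpFatB5* pods, and 896, 5288 and 347 in Youngsan pods. This gene had the widest span of the 3, and in the order of its 9 libraries only *CpFatB5* and Youngsan at 8 DAF were neighbours with overlapping intervals.

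**Figure D1:**
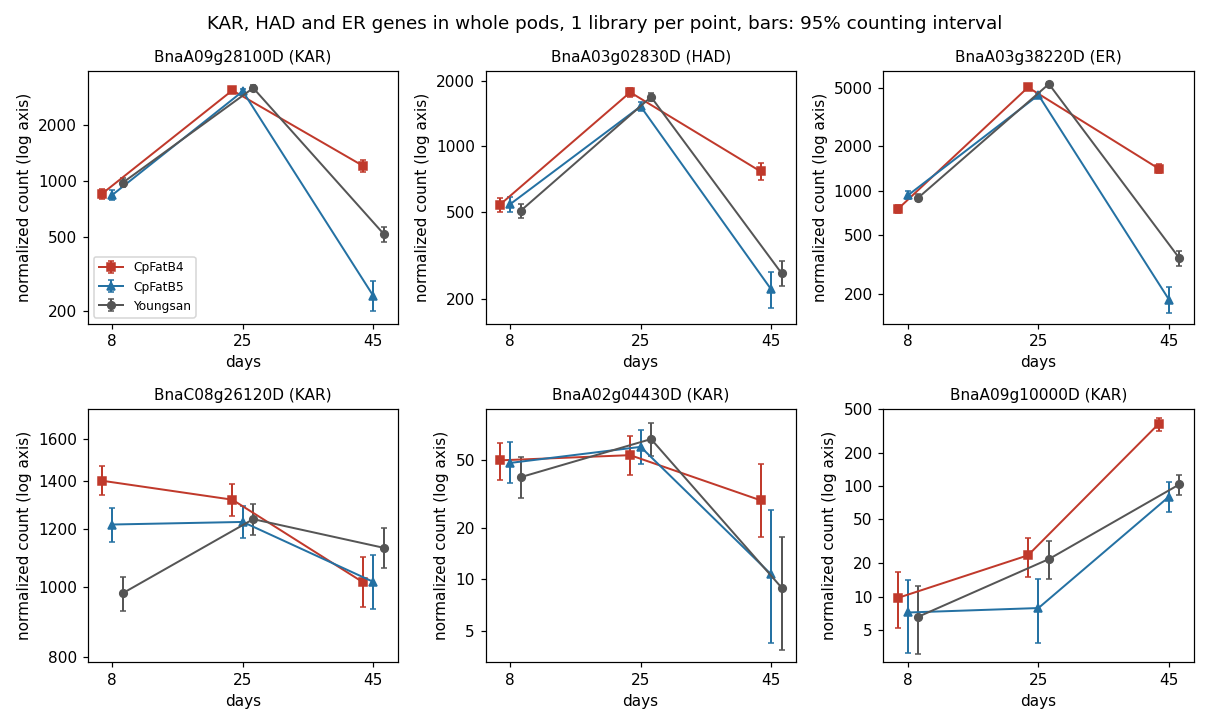
Normalized counts (log axis) of the 6 genes at 8, 25 and 45 days in *CpFatB4* (squares), *CpFatB5* (triangles) and Youngsan (circles), 1 library per point, with bars for the 95% counting interval and separate axis ranges. BnaA09g28100D, BnaA03g02830D and BnaA03g38220D peaked at 25 days in every line and were highest in *CpFatB4* at 45 days, whereas BnaC08g26120D stayed between 980 and 1401 and BnaA09g10000D was highest at 45 days in every line.

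The other 3 genes were listed by the study as KAR but match AT3G55310 or AT3G55290, and none of them both rose to 25 DAF and fell to 45 DAF past the limma test given further on. BnaC08g26120D (AT3G55310) varied little. It had 1401, 1319 and 1015 normalized counts at 8, 25 and 45 DAF in *CpFatB4* pods, 1219, 1229 and 1016 in *CpFatB5* pods, and 980, 1240 and 1132 in Youngsan pods. All neighbours in the order of its 9 libraries had overlapping intervals.

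BnaA09g10000D (AT3G55290) was scarce until 25 DAF and highest at 45 DAF. Its normalized counts at the 3 stages were 9.72, 23.7 and 366 in *CpFatB4* pods, 7.19, 7.89 and 80.5 in *CpFatB5* pods, and 6.59, 21.9 and 104 in Youngsan pods. The value of *CpFatB4* at 45 DAF lay above all others, and those of Youngsan and *CpFatB5* at 45 DAF had overlapping intervals. The values of 8 and 25 DAF rested on 6 to 28 counts in a column. At 25 DAF *CpFatB5* lay below the other lines, and *CpFatB4* and Youngsan had overlapping intervals.

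BnaA02g04430D (AT3G55290) was low in every library, and highest at 25 DAF and lowest at 45 DAF in each line. It had 49.7, 53.3 and 29 normalized counts at 8, 25 and 45 DAF in *CpFatB4* pods, 48, 59.6 and 10.7 in *CpFatB5* pods, and 39.6, 66.2 and 8.95 in Youngsan pods. The 3 libraries of 45 DAF were its lowest, with 5 to 18 counts in a column, and neighbours in the order of its 9 libraries had overlapping intervals.

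From 8 to 25 DAF, 3 of the 6 genes rose across the lines and none fell. The change shared by the 3 lines was tested with limma (voom, day and line as terms, Benjamini-Hochberg adjustment over 73312 genes), in which the lines serve as the spread although they are not replicates of 1 genotype. ER rose by 2.52 ± 0.53 on the log2 scale (SE, adjusted p = 0.00523), KAR BnaA09g28100D by 1.80 ± 0.41 (adjusted p = 0.00723) and HAD by 1.64 ± 0.33 (adjusted p = 0.00421). Over all genes tested, limma called 20.9% higher and 21.9% lower at 25 DAF. Without the *CpFatB5* library of 25 DAF, the adjusted p of BnaA09g28100D in limma was 0.0536, with a log2 change of 1.49.

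The remaining KAR genes did not pass this test. The log2 change from limma was 1.08 ± 0.45 for BnaA09g10000D (SE, adjusted p = 0.0858), 0.37 for BnaA02g04430D (adjusted p = 0.407) and 0.09 for BnaC08g26120D (adjusted p = 0.733). Leaving out the *CpFatB4* library of 45 DAF brought BnaA09g10000D past the threshold in limma (adjusted p = 0.0244, log2 change 1.09). The study's fold rule was applied here without its binomial test. It asks for a log2 fold change of 1 or more in size. The mean of the libraries compared must reach 1000 normalized counts, or 200 for *CpFatB4* over Youngsan at 25 DAF. The rule called the same number in each line, namely 3 of the 4 genes past the minimum. In *CpFatB5* the number was 2 when only abundant genes set the size factors, with the first column alone and with 1 subtracted from every count. The background for higher calls was 21.2% of genes past the minimum in *CpFatB4*, 18.6% in *CpFatB5* and 19.2% in Youngsan.

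From 25 to 45 DAF, 4 of the 6 genes fell and 1 rose in limma, against 30.2% and 18.1% of all genes tested. ER fell by 3.43 on the log2 scale (SE 0.53, adjusted p = 0.00105). KAR BnaA09g28100D fell by 2.53 (SE 0.41, adjusted p = 0.00124), HAD fell by 2.21 (SE 0.34, adjusted p = 0.000927) and BnaA02g04430D fell by 2.02 (SE 0.38, adjusted p = 0.00275). BnaA09g10000D rose by 3.20 ± 0.40 (SE, adjusted p = 0.000346), and BnaC08g26120D had a change of -0.27 ± 0.19 (adjusted p = 0.262).

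The size of this late decline differed between the lines in the libraries at hand. ER at 45 DAF was 28.1% of its level at 25 DAF in *CpFatB4*, 4.1% in *CpFatB5* and 6.56% in Youngsan. KAR BnaA09g28100D was at 39.2% in *CpFatB4*, 7.89% in *CpFatB5* and 16.3% in Youngsan. For HAD these shares were 43.4% in *CpFatB4*, 14.6% in *CpFatB5* and 15.6% in Youngsan. In all 3 genes the largest share was kept in *CpFatB4*. The fold rule called 3 of 4 genes past the minimum lower in *CpFatB4* (background 15.5%), 2 of 3 in *CpFatB5* (32.8%) and 2 of 3 in Youngsan (21.1%). When only genes averaging 1000 or more counts set the size factors, HAD BnaA03g02830D had -0.95 in *CpFatB4*, in place of -1.20, and was no longer called. HAD was left out in *CpFatB5* and Youngsan only because its means of 873 and 973 were under the minimum.

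At 8 and 25 DAF the lines were close for KAR BnaA09g28100D, HAD and ER. The log2 fold change of *CpFatB4* over Youngsan at 25 DAF was -0.04 for KAR BnaA09g28100D (-0.11 to 0.02), 0.07 for HAD (-0.02 to 0.16) and -0.08 for ER (-0.13 to -0.02). That of *CpFatB5* over Youngsan was -0.06 (-0.12 to 0.01) for KAR, -0.14 (-0.23 to -0.05) for HAD and -0.25 (-0.30 to -0.20) for ER. At 8 DAF the values of the 3 genes were from -0.27 to 0.09 in *CpFatB4* and from -0.22 to 0.10 in *CpFatB5*. BnaC08g26120D had its largest difference between lines at this stage, 0.52 (0.42 to 0.62) in *CpFatB4* and 0.32 (0.21 to 0.42) in *CpFatB5*. Both transgenic lines were set against the same Youngsan library at each stage. At 25 DAF the fold rule called 0 of the 4 genes past the minimum in either line. For *CpFatB4* this minimum was 200, and 0.317% of all genes past it were called higher and 0.151% lower. For *CpFatB5* it was 1000, with 0.0784% higher and 1.11% lower, so these backgrounds cover different sets of genes. At 8 DAF, with a minimum of 1000, the rule called 0 of the 1 gene past it, BnaC08g26120D. Of all genes past it, 2.45% were higher and 2.3% lower in *CpFatB4*, and 2.15% higher and 1.68% lower in *CpFatB5*.

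At 45 DAF the lines separated. In *CpFatB4* over Youngsan the log2 fold change was 2.02 for ER (1.84 to 2.21), 1.55 for HAD (1.33 to 1.78) and 1.22 for KAR BnaA09g28100D (1.05 to 1.39), that is 4.07, 2.93 and 2.33 times the Youngsan value. The low KAR genes were also above Youngsan, with 1.82 (1.48 to 2.18) for BnaA09g10000D and 1.70 (0.57 to 2.91) for BnaA02g04430D, and BnaC08g26120D had -0.16 (-0.30 to -0.01). Over the 6 genes the median was 1.62, beside -0.26 over all genes past the minimum. Scaling by total count gave 0.73 for BnaA09g28100D, which is under the fold, and 1.54 and 1.06 for ER and HAD.

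In *CpFatB5* over Youngsan at 45 DAF the log2 fold change was -1.11 for KAR BnaA09g28100D (-1.39 to -0.82) and -0.93 for ER (-1.26 to -0.60), both below 0 under every scaling tried. HAD had -0.24 (-0.57 to 0.08), which turned to 0.22 when only genes averaging 1000 or more counts set the size factors. The intervals of BnaA09g10000D at -0.36 (-0.86 to 0.19) and BnaA02g04430D at 0.25 (-1.09 to 1.84) included 0, and BnaC08g26120D had -0.16 (-0.31 to 0.00). The median of the 6 was -0.30, beside -0.45 over all genes past the minimum of 1000, which 5 of the 6 did not reach, and it was not tested against them. Scaled on those abundant genes, KAR had -0.64 and ER -0.46.

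Set directly against each other at 45 DAF, *CpFatB5* over *CpFatB4* had a log2 fold change of -2.95 for ER (-3.26 to -2.64), -2.33 for KAR BnaA09g28100D (-2.60 to -2.05) and -1.79 for HAD (-2.09 to -1.50). BnaC08g26120D had 0.00 (-0.17 to 0.17). Under the fold rule 0 of the 6 genes were called in these line comparisons at 45 DAF, where only 1 had a mean of 1000 or more. Of all genes past that minimum, 7.57% were called higher and 12.6% lower in *CpFatB4* over Youngsan, 4.01% and 12.8% in *CpFatB5* over Youngsan, and 10.6% and 18.5% in *CpFatB5* over *CpFatB4*. With a minimum of 200 the rule called 4 of 5 genes higher in *CpFatB4* over Youngsan (background 6.7%), 1 of 4 lower in *CpFatB5* over Youngsan (11.1%) and 4 of 5 lower in *CpFatB5* over *CpFatB4* (16%). BnaA09g10000D reached this minimum only through its 366 in *CpFatB4*, against 104 in Youngsan and 80.5 in *CpFatB5*. ER, at 182 in *CpFatB5*, likewise reached it through *CpFatB4* in the direct comparison. These calls are thus partly set by the minimum itself.

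**Figure D2:**
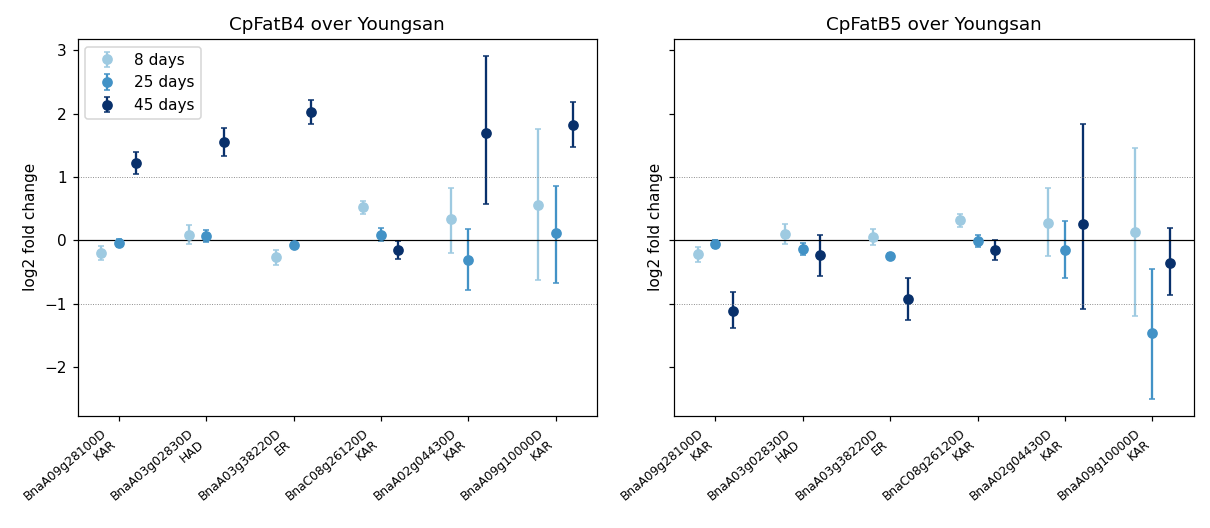
Log2 fold change of the 6 genes in *CpFatB4* over Youngsan (left) and *CpFatB5* over Youngsan (right) at 8, 25 and 45 days, with 95% counting intervals and dotted lines at 1 and -1. At 45 days ER, HAD and KAR BnaA09g28100D stood at 2.02, 1.55 and 1.22 in *CpFatB4* and at -0.93, -0.24 and -1.11 in *CpFatB5*, while at 25 days all 3 lay within -0.25 and 0.07.

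A difference between lines shared by the 3 stages was not found. With limma the adjusted p of the 6 genes was from 0.706 to 0.837 for *CpFatB4* over Youngsan and from 0.835 to 0.969 for *CpFatB5* over Youngsan, so 0 of 6 were called in either. At an unadjusted p under 0.05 in limma, 1 of the 6 was found in *CpFatB4*, BnaA09g10000D with 1.12 ± 0.39 (SE), and 0 in *CpFatB5*. At that unadjusted threshold 1770 of all 73312 genes were higher and 2972 lower in *CpFatB4*, and 1709 higher and 2162 lower in *CpFatB5*. With the adjusted p, limma's trend method also called 0 of 6 in both. Over all genes 0% were called by adjusted p in *CpFatB4*, and in *CpFatB5* 0.00136% were called higher and 0.00682% lower. A difference that exists at 1 stage enters the residual of this fit.

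The separation at 45 DAF moved together with seed storage genes. The 9 napin genes took 7.11% of the counts in *CpFatB4*, 0.372% in *CpFatB5* and 0.873% in Youngsan at 45 DAF. The 4 cruciferin genes took 13.2% in *CpFatB4*, 1.09% in *CpFatB5* and 2.52% in Youngsan. The 12 oleosin genes, which coat oil bodies, took 2.15% in *CpFatB4*, 2.04% in *CpFatB5* and 2.30% in Youngsan. Napin and cruciferin had the same order of lines as KAR BnaA09g28100D and ER. The order of oleosin depended on the scale, since in normalized counts its median log2 fold change was 0.33 in *CpFatB4* over Youngsan, with 12 of 12 genes above 0, and -0.24 in *CpFatB5* over Youngsan, with 12 of 12 below 0. Their part in the result was not tested. In whole pods a smaller share of a cell type and less RNA per cell cannot be told apart.

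Ratios of 2 genes within a library do not depend on the scaling between libraries. Their size depends on the lengths of the coding sequences, so only the change of a ratio across libraries is described. The ratio of ER to KAR BnaA09g28100D at 45 DAF was 1.17 (1.06 to 1.29) in *CpFatB4*, 0.761 (0.58 to 0.99) in *CpFatB5* and 0.672 (0.581 to 0.775) in Youngsan. At 25 DAF it was 1.63 in *CpFatB4*, 1.46 in *CpFatB5* and 1.67 in Youngsan, and at 8 DAF it was 0.876 in *CpFatB4*, 1.11 in *CpFatB5* and 0.917 in Youngsan. Relative to KAR, ER was thus highest at 25 DAF in every line, and at 45 DAF its ratio in *CpFatB4* lay above the others.

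The ratio of HAD to KAR BnaA09g28100D was steadier, from 0.502 to 0.648 in 8 of the 9 libraries. It was 0.927 (0.713 to 1.18) in *CpFatB5* at 45 DAF, against 0.508 (0.433 to 0.593) in Youngsan. Both genes had the lowest value of their 9 libraries there. KAR BnaA09g28100D was also set against the nearly flat BnaC08g26120D. At 45 DAF this ratio was 1.19 (1.07 to 1.32) in *CpFatB4*, 0.236 (0.195 to 0.288) in *CpFatB5* and 0.456 (0.409 to 0.51) in Youngsan. The order of the lines in the ratio did not rest on the size factors, but the flat course of BnaC08g26120D did. In *CpFatB5* over *CpFatB4* at 45 DAF that gene had 0.00, against 0.54 by total count.

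**Figure D3:**
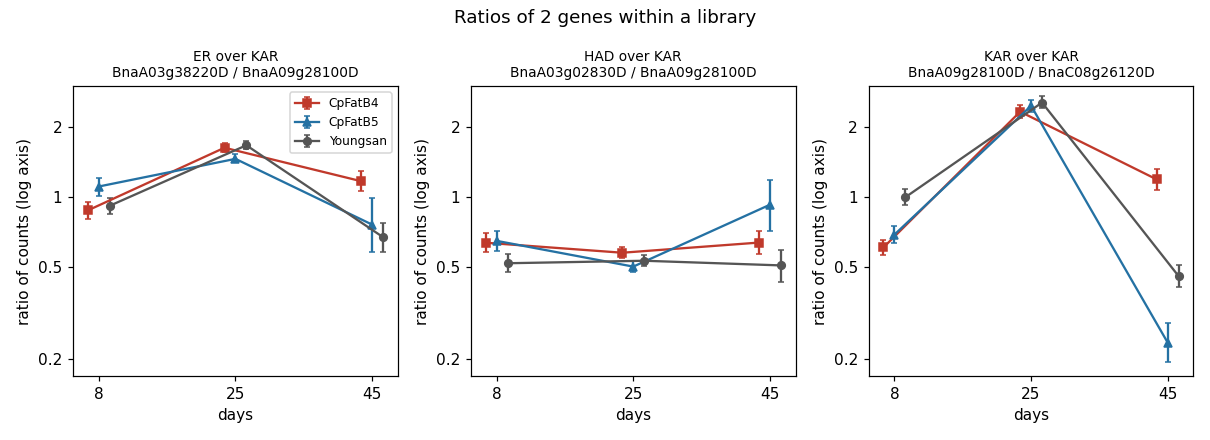
Ratios of counts of 2 genes within each library (log axis) at 8, 25 and 45 days in *CpFatB4*, *CpFatB5* and Youngsan, with 95% counting intervals. ER over KAR was highest at 25 days in each line, HAD over KAR stood at 0.927 in *CpFatB5* at 45 days and between 0.502 and 0.648 elsewhere, and BnaA09g28100D over BnaC08g26120D at 45 days was 1.19 in *CpFatB4*, 0.236 in *CpFatB5* and 0.456 in Youngsan.

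Rapeseed carries several copies of each enzyme on its A and C genomes. The homology list of the study holds 29 KAR, HAD and ER copies, of which 28 were in the table, the 6 genes included. None of the 28 shared all its counts with another gene, but near-identical copies can share reads, and how such reads were counted is not given in the sources used here, so that the values of single copies are uncertain. All 6 KAR copies like AT1G24360, all 4 HAD copies like AT5G10160 and all 4 ER copies rose from 8 to 25 DAF and fell from 25 to 45 DAF in limma. At 45 DAF their log2 fold changes in *CpFatB4* over Youngsan were from 1.13 to 1.28 for KAR, 1.50 to 1.75 for HAD and 1.94 to 2.02 for ER. In *CpFatB5* over Youngsan they were from -1.33 to -1.10 for KAR, -0.27 to -0.21 for HAD and -0.93 to -0.86 for ER, the HAD values turning above 0 under the shift of 0.46 that scaling on abundant genes brings.

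The HAD copies like AT2G22230 took another course. The 3 in the table fell from 8 to 25 DAF in limma, with a median log2 change of -3.37, and fell again to 45 DAF. At 45 DAF they had only 1.68 to 6.79 normalized counts, near the lowest raw count of 1, so the second fall rests on few reads. BnaC04g34640D had 136, 11.2 and 5.81 normalized counts at 8, 25 and 45 DAF in *CpFatB4* pods, 115, 16.6 and 6.79 in *CpFatB5* pods, and 114, 7.72 and 1.68 in Youngsan pods. It was highest at 8 DAF in each line, the stage at which BnaA03g02830D had not yet peaked.

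Among the 6 KAR copies like AT3G55290, 2 rose from 25 to 45 DAF and 2 fell in limma. BnaC09g10050D paralleled BnaA09g10000D, with 10.8, 21 and 363 normalized counts at the 3 stages in *CpFatB4* pods, 9.43, 9.07 and 66.9 in *CpFatB5* pods, and 8.43, 22.3 and 104 in Youngsan pods. Of the 5 copies like AT3G55310, 4 fell from 25 to 45 DAF, BnaC08g26120D being the exception. These other 4 copies had at most 183 normalized counts in any library. A highest value at 25 DAF in every line was not particular to the copies like AT1G24360. BnaCnng46610D (AT3G55310), for example, had 94.2, 118 and 27.4 normalized counts at 8, 25 and 45 DAF in *CpFatB4* pods, 101, 142 and 22.3 in *CpFatB5* pods, and 81.8, 142 and 10.6 in Youngsan pods.

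**Figure D4:**
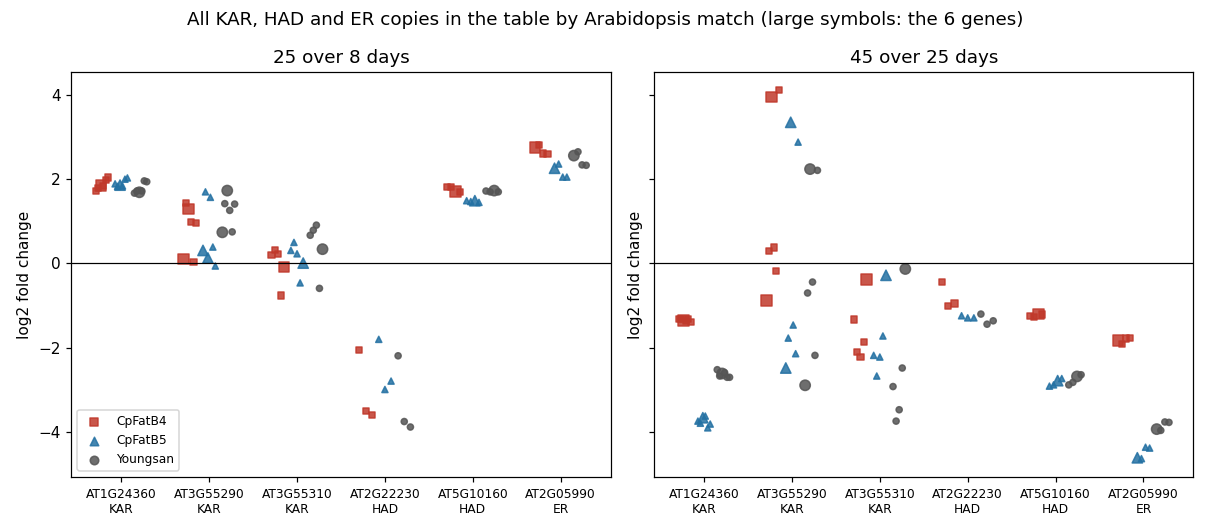
Log2 fold change of all 28 KAR, HAD and ER copies in the table for 25 over 8 days (left) and 45 over 25 days (right), by Arabidopsis match, in *CpFatB4* (squares), *CpFatB5* (triangles) and Youngsan (circles), values under 3 normalized counts being set to 3. The groups like AT1G24360, AT5G10160 and AT2G05990 lay above 0 in the left panel and below 0 in the right panel in every line, and the HAD copies like AT2G22230 lay below 0 in both.

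Genes with the closest course were sought by the correlation of log2 normalized counts over the 9 libraries, among 6081 genes with a mean of at least 1000, as a description without a test since the libraries share stages. BnaA09g28100D was most like BnaC05g21140D (Pearson's r = 0.9999) and BnaC03g75820D (0.9994), which are KAR copies of the same match. ER was most like the ER copies BnaC03g45040D (0.9998) and BnaA07g04370D (0.9997). Near-identical copies can share reads, so values of r between copies of 1 enzyme may not compare separate measurements. HAD was most like the ER copy BnaC03g45040D (0.9951) and BnaC09g54080D (0.9950).

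The search left out scarce genes, so that copies such as BnaC09g10050D could not be found by it for the other KAR genes. BnaA09g10000D was closest to BnaC09g14950D (r = 0.9814) and BnaA09g14400D (0.9809), and BnaC08g26120D to BnaC03g37530D (0.9914) and BnaA03g32240D (0.9896). BnaA02g04430D was closest to BnaAnng02090D and BnaA07g26670D, each with r = 0.9774 over the 9 libraries.

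The other steps of plastid fatty acid synthesis were described by the study's homology lists. All 21 pyruvate dehydrogenase genes (PDHC), which supply acetyl-CoA, all 6 malonyltransferase genes (MCMT), which load the malonyl unit, and all 4 KAS III, 6 KAS I and 8 KAS II genes rose from 8 to 25 DAF and fell from 25 to 45 DAF in limma. Of the 20 acetyl-CoA carboxylase genes (ACCase), which make malonyl-CoA, 14 rose to 25 DAF, and 16 fell and 4 rose to 45 DAF. Of the 13 stearoyl-ACP desaturase genes (SAD) 13 rose and 10 later fell. Other lists were mixed. Of the 10 ACP genes 4 rose and 6 fell to 25 DAF, and 10 fell to 45 DAF. Of the 7 genes of the thioesterase FatA 2 rose to 25 DAF and 6 fell to 45 DAF, and of the 7 of endogenous FatB 0 rose and 3 fell to 25 DAF and 7 fell to 45 DAF. The median change of all genes tested was -0.01 and -0.17 on the log2 scale.

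At 45 DAF the median log2 fold change of *CpFatB4* over Youngsan was 1.55 for PDHC, 1.54 for ACCase, 1.14 for MCMT, 1.15 for KAS III, 1.79 for KAS I, 1.77 for KAS II and 2.20 for SAD. All members of these 7 lists were above 0, as were all KAR copies like AT1G24360, HAD copies like AT5G10160 and ER copies, with medians of 1.22, 1.62 and 1.98. Scaling by total count lowers each of these values by 0.49, which is more than the 0.15 of the lowest PDHC gene. In *CpFatB5* over Youngsan the medians were -1.12 for PDHC, -1.29 for ACCase, -0.86 for MCMT, -0.38 for KAS III, -1.21 for KAS I, -1.84 for KAS II and -1.25 for SAD. In ACCase 4 of the 20 genes were above 0, up to 4.10, and these 4 were the only members past the minimum and were called higher. The same 3 groups had -1.23 for KAR, -0.25 for HAD and -0.87 for ER. HAD and KAS III were above the median of -0.45 of all genes past the minimum in *CpFatB5*, and the other lists named so far were below it, while the shift of 0.46 by abundant genes also carries the median of KAS III above 0. ACP had medians of 0.75 in *CpFatB4* and 0.00 in *CpFatB5*, FatA had 1.46 and -0.56, and FatB had -0.07 and -0.52, in the same order of lines.

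**Figure D5:**
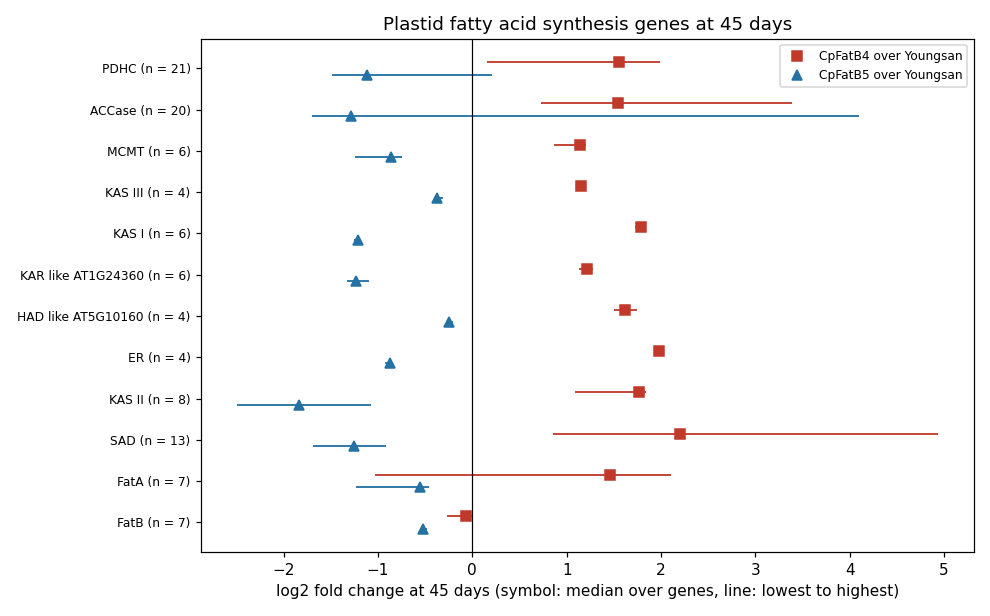
Log2 fold change at 45 days over Youngsan for the gene lists of plastid fatty acid synthesis, with squares for the median in *CpFatB4*, triangles for that in *CpFatB5* and lines from the lowest to the highest gene. ER, with medians of 1.98 in *CpFatB4* and -0.87 in *CpFatB5*, and KAR like AT1G24360, with 1.22 and -1.23, lay with the condensing enzymes on opposite sides of 0, and HAD had -0.25 in *CpFatB5*.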

How the data were processed

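The authors trimmed reads with SolexaQA and mapped them with Bowtie2 (version 2.1.0) to the Genoscope coding sequences of *B. napus*. The authors deposited 18 columns of raw counts, 2 per library, which are recorded as other because large values carry commas, and 13 columns that they normalized by DESeq size factors and rounded, recorded as a score. The lowest raw count was 1 and was left in place. What the 2 columns stand for is not given in the sources used here. Each pair was taken as repeat measurements of 1 library.

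Median-of-ratios size factors were computed anew over the 18 columns, and the results lay within 0.500 of the deposited normalized score values. For fold changes, 3 normalized counts was the floor of a value. Exact Poisson intervals for levels and Wilson intervals for ratios, at the 95% level, cover counting error only. As a guide to that floor, 3 raw counts were from 3.40e-06% to 7.76e-06% of a library's total over both columns. Stage and line effects were fitted with limma 3.58.1 (voom, counts of both columns summed) in R 4.3.3 on genes with the equivalent of 10 counts in at least 3 libraries. Other steps used Python 3.11.15, numpy 2.4.6, pandas 2.3.3 and scipy 1.17.1. The scripts were tested on simulated data. Because no line and stage had a replicate, the p-values rest on how the libraries departed from the fitted day and line terms. They do not give the spread between replicate pools.

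All 6 genes are named, then other copies that differ in direction from them, and for each gene the 2 with the most similar course. BnaC04g34640D was taken as the most abundant HAD copy like AT2G22230. The genes and lists were chosen with earlier results of these data known. Alternatives were other scalings (total count, TMM, abundant genes), single columns, 1 subtracted from every count, other minimums, no filter, limma's trend method and leaving out each library. 1 listed copy was not analysed here.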

Additional observations from a re-analysis of the deposited data

Results flagged for a closer look

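KAR BnaA09g28100D and ER BnaA03g38220D were singled out because at 45 DAF their difference from Youngsan had opposite directions in the transgenic lines, with both counting intervals away from 0. For BnaA09g28100D the log2 fold change was 1.22 in *CpFatB4* and -1.11 in *CpFatB5*, a gap of 2.33. For BnaA03g38220D it was 2.02 in *CpFatB4* and -0.93 in *CpFatB5*, a gap of 2.95. Both are set against the same Youngsan library.

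Within *CpFatB4* the direction over Youngsan also changed with the stage. For BnaA09g28100D it was 1.22 at 45 DAF and -0.20 at 8 DAF, a gap of 1.42. For BnaA03g38220D the value of 2.02 at 45 DAF stood against -0.27 at 8 DAF (gap 2.29) and -0.08 at 25 DAF (gap 2.10). BnaC08g26120D had the opposite pattern, with -0.16 at 45 DAF and 0.52 at 8 DAF, a gap of -0.68. With 1 library per line and stage none of these 6 differences was tested.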

How the results depend on the processing

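The number of the 6 genes that limma called higher from 8 to 25 DAF was from 2 (without *CpFatB5* 25 DAF) to 4 (without *CpFatB4* 45 DAF), and the other counts of called genes among the 6 did not change. Of 540 fold changes of single genes recomputed under 6 alternatives, 34 changed sign, 13 of them when only genes averaging 1000 or more counts set the size factors. That scaling moved the median log2 fold change of all genes by 0.46 in *CpFatB5* over Youngsan at 45 DAF and by 0.59 in *CpFatB5* from 25 to 45 DAF, and scaling by total count moved it by -0.49 in *CpFatB4* over Youngsan at 45 DAF.

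The fold rule was also applied to the 6 genes without a minimum on the mean. The share of all genes called in this way was not computed, so these counts have no background beside them. Some of the calls rested on few reads, such as 5 to 18 counts in a column for BnaA02g04430D at 45 DAF. The rule then called 1 higher and 4 lower in Youngsan and in *CpFatB5* from 25 to 45 DAF, and 1 higher in *CpFatB4*. In the line comparisons it then called 5 higher in *CpFatB4* over Youngsan at 45 DAF, 1 lower in *CpFatB5* over Youngsan at 25 and at 45 DAF, and 1 and 5 lower in *CpFatB5* over *CpFatB4* at 25 and 45 DAF. With a minimum of 200 these counts at 45 DAF were 4 higher, 1 lower and 4 lower, in the same order. BnaA09g10000D entered the first and last of them only through *CpFatB4*, where it was high.

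In limma 16 values that did not pass the threshold turned sign. For BnaC08g26120D from 8 to 25 DAF the change was -0.25 by total count, -0.29 by abundant genes and, with a library left out, from -0.07 (without Youngsan 8 DAF) to 0.21, and from 25 to 45 DAF it was 0.07 by abundant genes. For BnaA02g04430D from 8 to 25 DAF it was -0.01 by abundant genes. The line effect of *CpFatB4* over Youngsan was -0.02 by total count for BnaC08g26120D. With a library left out it ran from -0.01 (without Youngsan 8 DAF) to 0.27 for BnaC08g26120D and, lowest without *CpFatB4* 45 DAF, from -0.29 to 0.70 for BnaA09g28100D and from -0.32 to 1.19 for ER. That of *CpFatB5* over Youngsan was 0.05 by abundant genes for HAD. With a library left out it ran from -0.11 (without Youngsan 45 DAF) to 0.43 for BnaA02g04430D and from -0.11 (without Youngsan 8 DAF) to 0.17 for BnaC08g26120D. Highest without *CpFatB5* 45 DAF, it ran from -0.73 to 0.07 for BnaA09g28100D, from -0.29 to 0.20 for HAD, which also had 0.06 without Youngsan 25 DAF, and from -0.76 to 0.25 for ER. The cause was not tested.

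Among all genes, limma called 15288 higher and 16055 lower from 8 to 25 DAF, against 9876 and 22029 by total count and 10442 and 26044 by abundant genes. From 25 to 45 DAF it called 13302 higher and 22105 lower, against 7715 and 27418 by total count, 20260 and 15842 by abundant genes, and 21056 higher with no filter. With a library left out, the lowest number of higher calls was 9797 and 8237, and the line effect of *CpFatB5* had from 0 to 5 higher and 0 to 6 lower over all alternatives. By total count the fold rule called 12% to 13.9% higher and 12% to 14.5% lower from 8 to 25 DAF in the 3 lines, 8.39% and 42.8% from 25 to 45 DAF in *CpFatB4*, and 4.48% and 35.1% in *CpFatB4* over Youngsan at 45 DAF. By abundant genes it called 15.2% and 9.97% from 25 to 45 DAF in *CpFatB4*, 30.6% and 18.6% in *CpFatB5*, and 4.59% and 1.72% in *CpFatB5* over Youngsan at 45 DAF. No paired analysis was possible because each line and stage has 1 library and the labels carry no replicate number.

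Counts of BnaA09g10000D at 8 DAF could not order the lines.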

Other observations

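WRI1 (AT3G54320) is a transcription factor that in Arabidopsis activates genes of glycolysis and plastid fatty acid synthesis. The study's list of 8 genes of its family holds 4 copies of it. Limma called 4 of the 8 higher and 2 lower from 8 to 25 DAF, beside 20.9% and 21.9% of all genes tested. From 25 to 45 DAF it called 4 of the 8 lower, beside 30.2% of all genes tested. BnaA07g16350D, the WRI1 copy with the most counts, had 108, 1489 and 661 normalized counts at 8, 25 and 45 DAF in *CpFatB4* pods, 128, 1632 and 65 in *CpFatB5* pods, and 80.4, 1753 and 204 in Youngsan pods. Its highest stage, and the order of the lines at 45 DAF, were those of KAR BnaA09g28100D and ER. The copies BnaA09g34250D and BnaC08g25150D had nearly equal counts in every library, such as 560 and 560 in *CpFatB4* at 45 DAF, and reads shared between near-identical copies were not separated here.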
